A study of Homo sapiens with 6 samples.

Results

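Voltage-gated sodium and calcium channels, the HCN pacemaker channels and the potassium channels are the proteins that set the resting potential of a nerve cell and shape its action potentials. Their genes were taken from the deposited table by name: protein-coding rows whose symbol begins with SCN and a number followed by A or B, with KCN, with CACN or with HCN and a number. The rule found 105 genes among 28752 rows, of which 72 are potassium, 18 calcium, 12 sodium and 3 HCN channel genes, pore-forming and auxiliary subunits together. The name rule reaches beyond voltage-gated channels, because several CACNG proteins are known as partners of AMPA-type glutamate receptors and several KCN genes encode leak channels or inward rectifiers.

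The cells were SH-SY5Y, a human neuroblastoma line of sympathetic origin. They were transfected with OE-circSHPRH or with OE-NC and harvested at 72 h, and each group has 3 libraries (replicates 1 to 3). The labels spell out neither OE nor NC, and OE-NC is read here as the control. No further allele, agent or selection is stated for either group. The labels do not state whether the 3 samples of a group were cultured apart. The p-values therefore rest on a spread between samples that may be purely technical.

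Gene counts summed to 15645261 to 17591718 per library. SHPRH, the host gene of the circular RNA, had 1395, 1121 and 1071 counts in OE-circSHPRH libraries, against 394, 409 and 472 in OE-NC libraries, which fits the labels. The 7 listed adrenergic markers of sympathetic neuroblasts, among them GATA3 and DBH, were all measured, with a summed level of 1194 to 1229 FPKM in OE-circSHPRH and 1170 to 1187 FPKM in OE-NC libraries. FPKM here is the deposited level per kilobase of gene length, scaled for the size of the library. The 6 mesenchymal markers in the table summed to 75.8 to 82.9 FPKM in OE-circSHPRH and 74.2 to 77.2 FPKM in OE-NC, and the 5 fibroblast markers to 124 to 134 FPKM and 117 to 123 FPKM in the same order. The 5 Schwann cell or glia markers summed to 2.90 to 3.62 FPKM in OE-circSHPRH and 3.22 to 4.53 FPKM in OE-NC, with SOX10 at a mean of 0.0296 FPKM over the 6 libraries. The 3 epithelial markers in the table reached at most 0.780 FPKM in an OE-circSHPRH and 0.973 FPKM in an OE-NC library, and CD14, the only blood cell marker in the table, 0.812 and 0.448 FPKM in the same order. The summed adrenergic and fibroblast levels did not overlap between the groups, being higher in OE-circSHPRH, and their part in any channel gene difference was not tested. The nearest fibroblast sums were 124.1 FPKM in OE-circSHPRH and 123.2 FPKM in OE-NC. LUM averaged 50.3 FPKM in OE-circSHPRH and 42.6 FPKM in OE-NC, whereas COL3A1, the highest fibroblast marker, averaged 67.6 and 67.7 FPKM in the same order. Of the 7 adrenergic markers, 4 had a positive log2 fold change, against 50.8% of all genes tested. In these bulk samples, fewer cells of a type and less RNA per cell cannot be told apart.

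As background, a potassium channel pore is lined by a short selectivity filter that is alike in voltage-gated, calcium-activated, inwardly rectifying and tandem-pore (K2P) channels and is kept in HCN channels, which pass both sodium and potassium. Sodium and calcium channels select their ion with other residues. Auxiliary subunits hold no pore and change the traffic or gating of the pore proteins they bind. In sympathetic neurons, sodium channels carry the upstroke of the action potential, while KCNQ and KCNH channels restrain repeated firing.

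The coding bases of the filter were looked up in the longest complete coding sequence of each gene (GENCODE 29, GRCh38) as an in-frame run of 4 codons, GTN or ATN, then GGN, then TAN or TTN, then GGN, on the coding strand. They are shown for pore genes that the results below turn on, 45 bases each, 5′ to 3′, with the 12 matching bases in capitals. Windows that lie in 1 exon have their position, and those that cross a splice junction have the position of their outer bases.
KCNH2, chr7:150951494-150951538, minus strand: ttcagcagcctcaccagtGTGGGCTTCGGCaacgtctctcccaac
KCNH8, chr3:19438271-19438315, plus strand: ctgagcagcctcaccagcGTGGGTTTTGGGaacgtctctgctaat
KCNT2, chr1:196429643-196429687, minus strand: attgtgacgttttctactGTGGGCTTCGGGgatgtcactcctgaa
KCNN1, chr19:17985367-17985411, plus strand: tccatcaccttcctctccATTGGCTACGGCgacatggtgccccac
KCNJ8, chr12:21766551-21766595, minus strand: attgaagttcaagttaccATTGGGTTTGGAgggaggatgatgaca
KCNJ11, chr11:17387675-17387719, minus strand: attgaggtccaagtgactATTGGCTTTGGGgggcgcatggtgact
KCNK5, pore loop 1, chr6:39194738-39195897, minus strand, spliced: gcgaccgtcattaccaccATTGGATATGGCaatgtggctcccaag
KCNK5, pore loop 2, chr6:39191754-39194211, minus strand, spliced: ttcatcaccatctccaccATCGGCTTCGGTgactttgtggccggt
HCN2, chr19:608009-608053, plus strand: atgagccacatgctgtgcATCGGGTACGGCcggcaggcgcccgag
HCN3, chr1:155284584-155284628, plus strand: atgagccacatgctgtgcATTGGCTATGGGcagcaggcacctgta

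The run was found in 26 of 30 Kv pore genes, 7 of 7 calcium- and sodium-activated, 9 of 9 inward rectifier, 8 of 10 K2P and 3 of 3 HCN genes. It was found in 0 of 16 potassium auxiliary genes, 0 of 6 calcium pore genes and 1 of 9 sodium pore genes, SCN1A. Of the 15837 protein-coding genes of the table with a complete coding sequence, 2.66% held it. KCND1, KCNC1 and KCNC4 among the Kv pores and KCNK1 and KCNK7 of the K2P genes were without these letters, which says only that other codons stand there.

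A few channel genes held most of the channel mRNA of SH-SY5Y. Over the 6 libraries, 6 of the 105 genes had a mean level of 10 FPKM or more, 25 lay between 1 and 10 FPKM, 27 between 0.1 and 1 FPKM and 47 under 0.1 FPKM. The 6 highest, which are KCNH2, CACNG4, CACNG7, CACNA2D1, SCN9A and KCNJ8, took 63.2% of the summed FPKM of all 105 genes. By class, potassium genes held 44.8% of that sum, calcium genes 41.9%, sodium genes 9.75% and HCN genes 3.46%.

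KCNH2 encodes the hERG potassium channel, which repolarises the heart and is also known from neuroblastoma cells. It had 43.7, 44.1 and 47.0 FPKM in the OE-circSHPRH libraries, against 43.9, 43.1 and 42.1 FPKM in the OE-NC libraries. Its mean level stood at rank 827 of the 16458 genes tested, and no other channel gene reached it in any library. CACNG4 and CACNG7 followed with overlapping ranges, 31.6 to 39.4 FPKM and 31.8 to 36.5 FPKM over the 6 libraries. CACNA2D1 (17.3 to 18.8 FPKM) and SCN9A (16.9 to 18.8 FPKM) also overlapped each other, below both CACNG genes. KCNJ8 came next with 13.2 to 15.7 FPKM and did not overlap SCN9A.

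**Figure D1:**
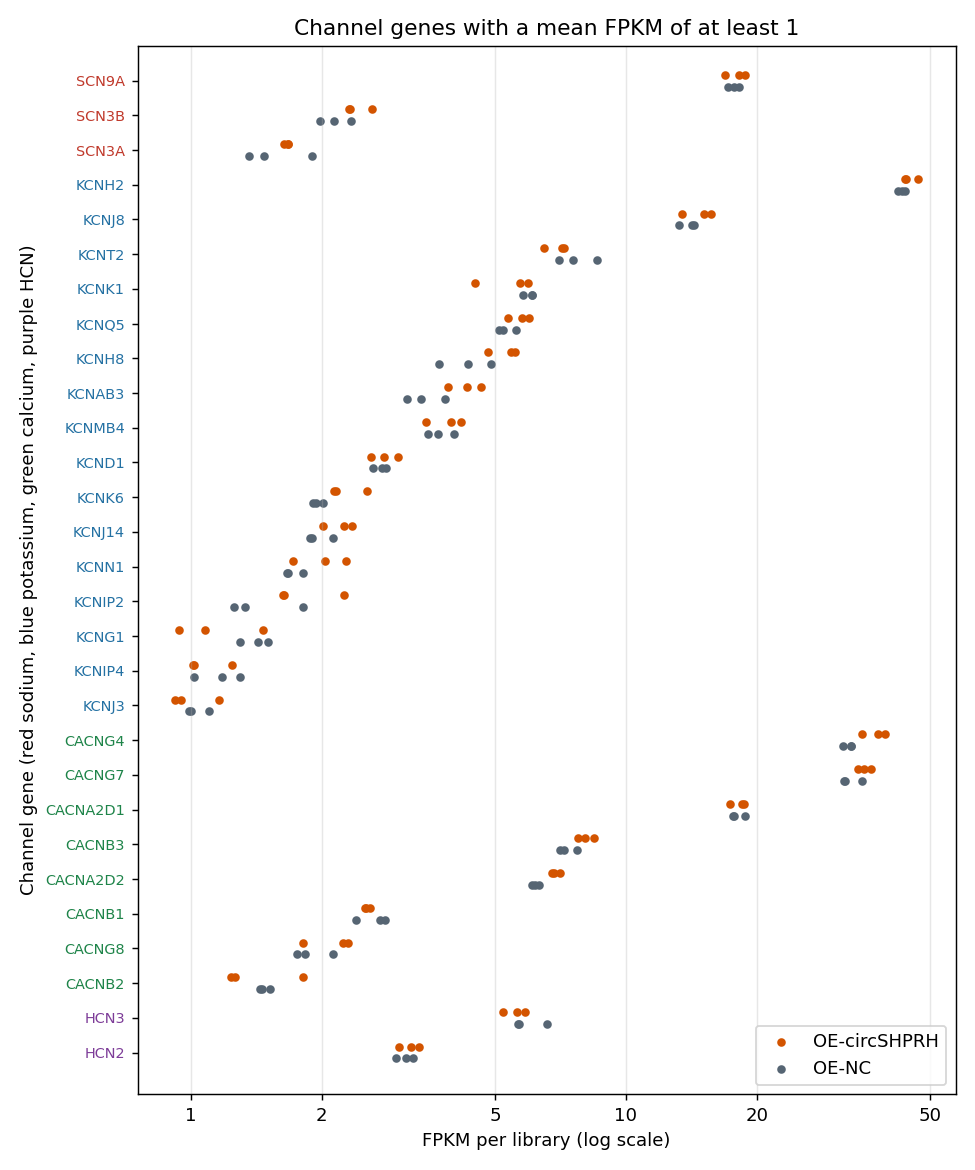
Level of 29 of the 31 channel genes with a mean FPKM of at least 1, by class and falling mean level (vertical axis) against FPKM per library on a log scale (horizontal axis). Each point is 1 library, OE-circSHPRH above OE-NC for each gene. KCNH2 lies to the right of all other genes, and for most genes the points of the groups are interleaved.

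The comparison of OE-circSHPRH with OE-NC asked whether mRNA levels of channel genes differed 72 h after transfection. No channel gene passed at 0.05 after Benjamini-Hochberg adjustment over all 16458 genes tested by edgeR (quasi-likelihood F test), and the smallest adjusted p was 0.127, for CACNG4. Of all genes tested, 0.188% passed, 0.128% higher and 0.0608% lower in OE-circSHPRH. Of the 105 channel genes, 58 passed the filter on low counts and were tested (36 potassium, 11 calcium, 9 sodium, 2 HCN). At an unadjusted p under 0.05 there were 10 of 58 (17.2%), against 10.3% of all genes tested. Of the 58 tested, 7 were higher in OE-circSHPRH at that threshold, against 5.33% of all genes tested, and 3 of 58 were lower, against 5.02%. DESeq2, run on all 105 channel genes without that filter, also called 0, with 3 at an unadjusted p under 0.05. It gave an adjusted p to only 6455 of 28751 genes, and a gene without one could not be called. On the same 58 genes as edgeR, limma-voom called 0, with 10 at an unadjusted p under 0.05.

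Differences were small where counts were high. The median log2 fold change of the tested channel genes was 0.03, against 0.0018 for all genes tested, and 34 of 58 (58.6%) were positive, against 50.8% of all genes. With 1 library left out, the channel gene median ran from 0.017 (without OE-NC replicate 3) to 0.057 (without OE-circSHPRH replicate 1). None exceeded 1 in size on the log2 scale. Of the 6 that exceeded 0.5, SCN4B and KCNK7 were upward and KCNK5, KCNH3 and KCNJ11 downward, these 5 with 4 to 48 counts per library. The standard error was under 0.1 for 19 of the 58 genes and ran from 0.043 for KCNH2 to 0.51 for CACNG6. The other 47 genes had 2 to 49 counts over all 6 libraries together, 20 of them 10 or fewer, and no library gave any of them more than 16 counts.

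**Figure D2:**
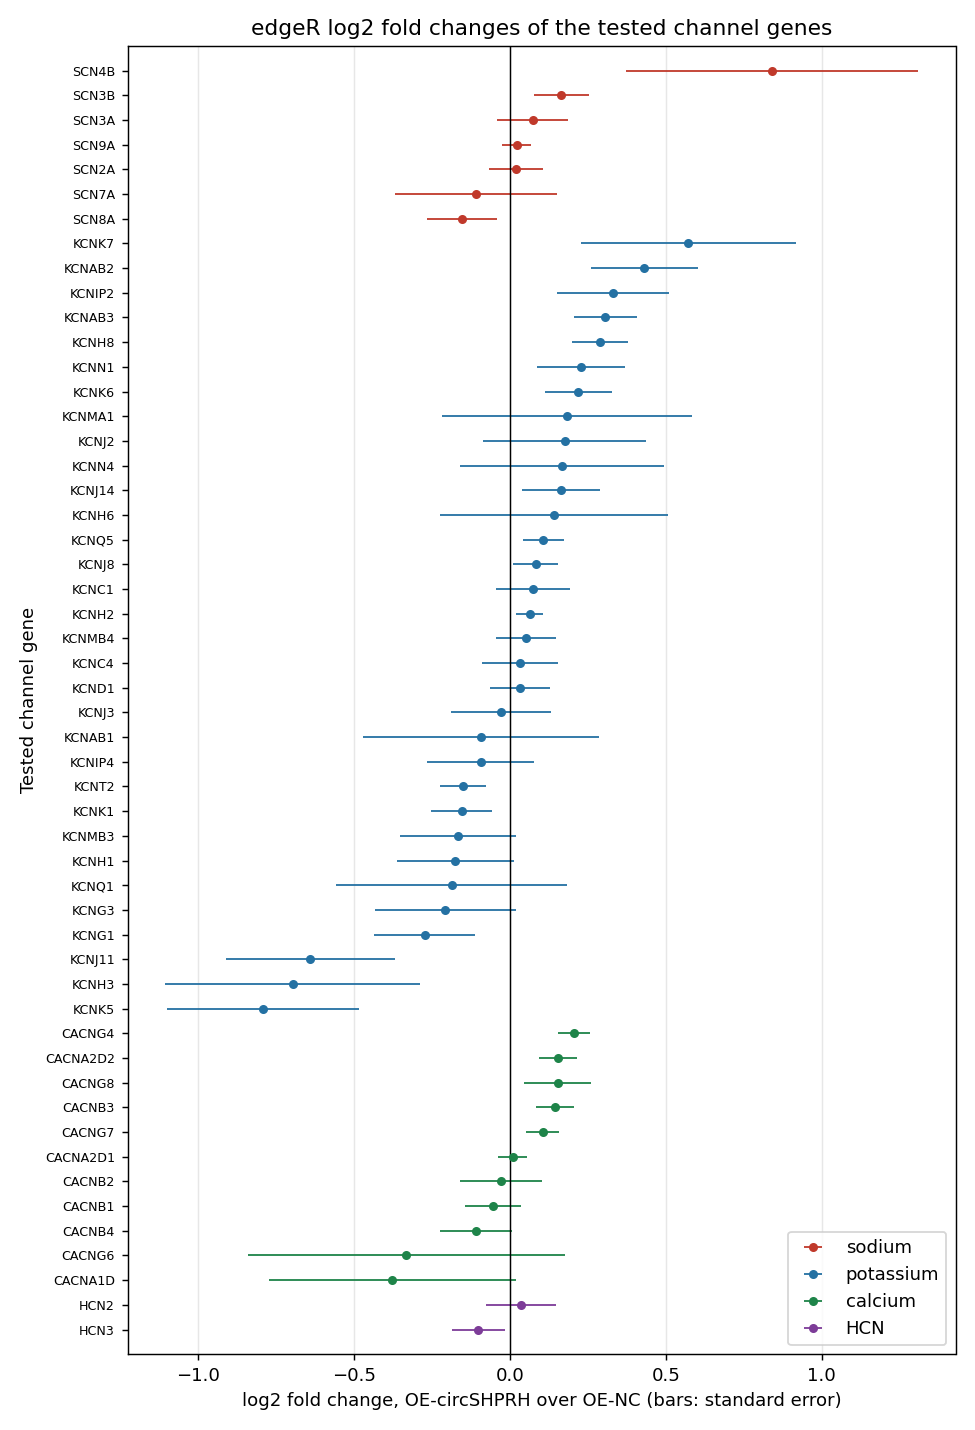
log2 fold change, OE-circSHPRH over OE-NC, of 52 of the 58 tested channel genes (horizontal axis), grouped by class and sorted within it (vertical axis), with bars for the standard error. The sodium, potassium and calcium genes lie on both sides of 0, and the longest bars belong to genes with few counts, such as CACNG6 and SCN4B.

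Libraries of OE-circSHPRH and OE-NC did not overlap in 11 of the 58 tested genes (19%), against 15.6% of all genes tested. In 7 the OE-circSHPRH libraries were all higher (12.1%, against 7.99% of all genes) and in 4 all lower (6.90%, against 7.57%). Of these, 9 are given by role below. The levels used for this and for the values that follow, unless FPKM is named, are CPM, counts scaled to a common library size with TMM factors.

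**Figure D3:**
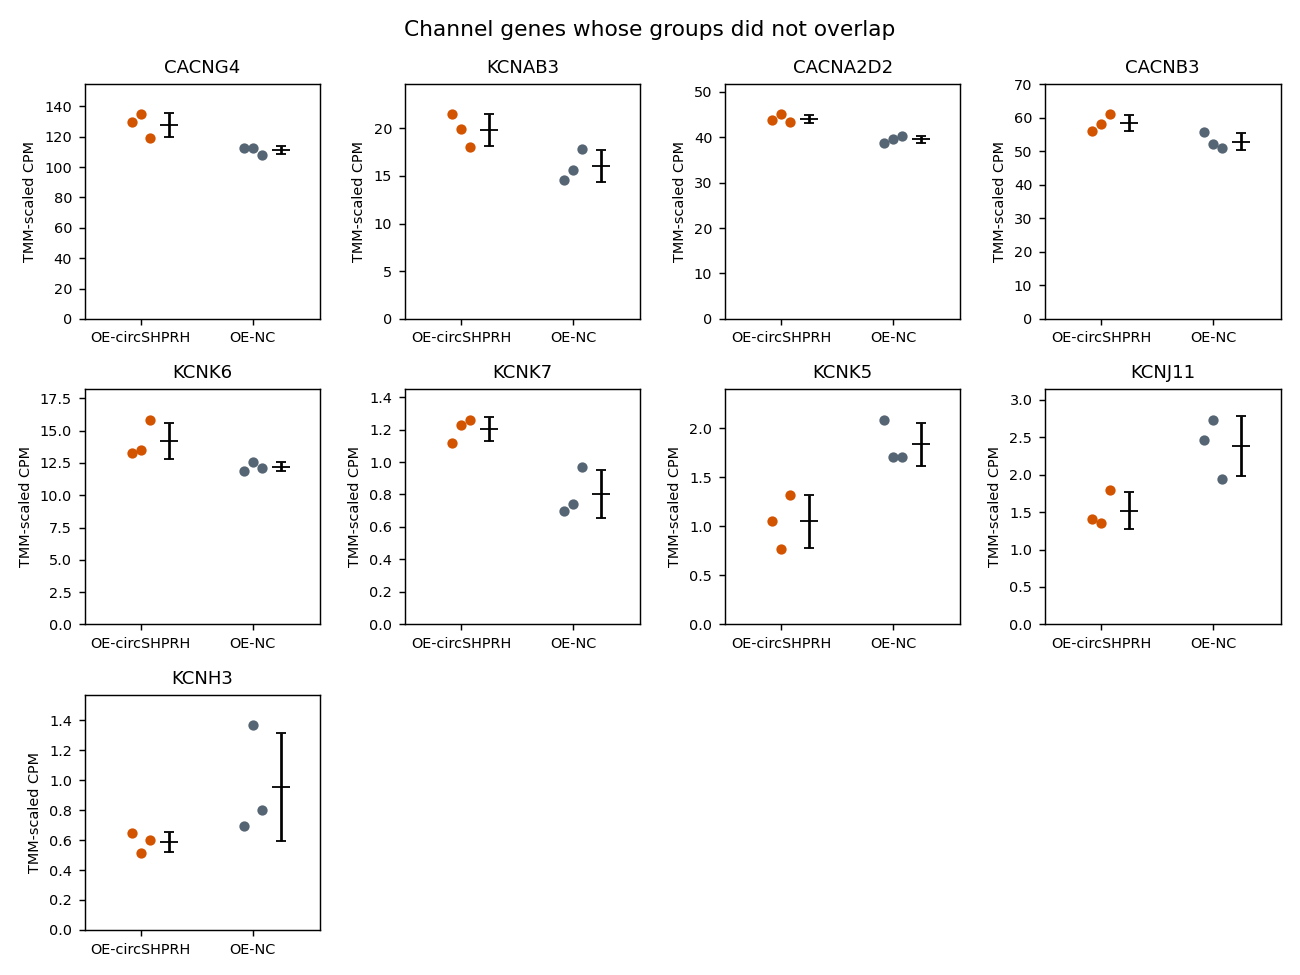
TMM-scaled CPM per library of 9 of the 11 tested channel genes whose groups did not overlap, OE-circSHPRH left of OE-NC, on axes that start at 0. Points are libraries and the bar beside them is the mean with its SD (n = 3). The gap is narrow in CACNB3 and KCNAB3, and KCNK7, KCNK5, KCNJ11 and KCNH3 lie below 3 CPM.

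Among the sodium channel pores, SCN9A dominated. It encodes the channel of sympathetic and pain-sensing neurons that amplifies small depolarisations. It had 18.8, 18.2 and 16.9 FPKM in OE-circSHPRH libraries, against 17.7, 17.1 and 18.2 FPKM in OE-NC libraries. The groups were interleaved, and the log2 fold change was 0.02 with a 95% interval of -0.07 to 0.12 (edgeR, unadjusted for multiple tests, like every interval here).

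The other sodium pores described here were about an order of magnitude lower or less. SCN3A, known as a channel of the embryonic brain, averaged 1.66 ± 0.0232 FPKM in OE-circSHPRH and 1.58 ± 0.285 FPKM in OE-NC (SD, n = 3 each). SCN2A and SCN8A, both channels of the axon initial segment, had means of 0.987 and 0.885 FPKM over the 6 libraries, and each group's range overlapped the other's. The log2 fold change was 0.02 for SCN2A and -0.15 for SCN8A, with standard errors of 0.087 and 0.11. SCN7A, a channel thought to sense sodium concentration, had 27 to 39 counts per library. SCN1A, SCN4A and SCN11A had 39, 11 and 31 counts over all 6 libraries and were not tested. SCN9A, SCN3A and SCN2A lie in a cluster on chromosome 2, and antisense or neighbouring genes of the table share 8.2% of the exonic bases of SCN9A and 9.9% of those of SCN3A. Whether reads were counted by strand is not given in the sources used here, so those reads cannot be told apart.

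The sodium beta subunits SCN3B and SCN4B, single-pass proteins that bind the pore and act in cell adhesion, had positive log2 fold changes, and neither passed the test. SCN3B, the most abundant, averaged 23.1 ± 1.54 CPM in OE-circSHPRH and 20.6 ± 1.68 CPM in OE-NC (SD, n = 3 each), with overlapping groups and a log2 fold change of 0.16 (edgeR adjusted p = 0.550). SCN4B had 8, 16 and 21 counts in OE-circSHPRH libraries, against 4, 12 and 10 in OE-NC libraries, with overlap and a standard error of 0.47.

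Over the sodium class, 7 of 9 tested genes were positive with a median log2 fold change of 0.07. An unadjusted p under 0.05 was found for 1 of them, against 10.3% of all genes tested. That median depended on single libraries, being 0.019 without OE-NC replicate 2, 0.023 without OE-NC replicate 1 and 0.13 without OE-circSHPRH replicate 2, and it was 0.014 with a term for library class. Summed over the 12 genes, the level was 24.5 to 26.5 FPKM in OE-circSHPRH and 24.2 to 25.7 FPKM in OE-NC.

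Among the Kv pores, the voltage-gated potassium channels, KCNH2 had a log2 fold change of 0.06 with a 95% interval of -0.03 to 0.15, and of 0.029 without OE-circSHPRH replicate 3. KCNH8, of the Elk branch of the KCNH family, had the smallest unadjusted p among the potassium genes. It had 33.9, 34.5 and 30.0 CPM in OE-circSHPRH libraries, against 26.9, 23.2 and 30.4 CPM in OE-NC libraries. OE-NC replicate 3 lay above OE-circSHPRH replicate 3, so the groups overlapped, and the log2 fold change came to 0.29 ± 0.090 (SE, edgeR adjusted p = 0.239). Without OE-circSHPRH replicate 3 its adjusted p was 0.0369, and in the other fits with 1 library left out it was 0.154 to 0.658.

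KCNQ5 encodes a subunit of the M-current, the slow potassium current that muscarinic receptors close. It averaged 43.7 ± 2.37 CPM in OE-circSHPRH and 40.6 ± 1.94 CPM in OE-NC (SD, n = 3 each), with overlapping groups and a log2 fold change of 0.11 (standard error 0.066). KCNQ3, also an M-current subunit, had 2 counts over the 6 libraries, and KCNQ1 had 85.

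KCNH3, also of the Elk branch, had 11, 8 and 10 counts in OE-circSHPRH libraries, against 11, 24 and 14 in OE-NC libraries. Its CPM did not overlap, but OE-NC replicate 2 stood far above the rest, and the standard error of its log2 fold change of -0.70 was 0.41 (edgeR adjusted p = 0.594). Without that library the log2 fold change was -0.34. KCND1, which carries A-type current, averaged 2.79 ± 0.202 FPKM in OE-circSHPRH and 2.73 ± 0.0956 FPKM in OE-NC, with a log2 fold change of 0.03. The Shaw-type pore KCNC1, used by fast-spiking neurons, had a mean of 0.736 FPKM over the 6 libraries. KCNG1, a subunit that is silent alone and modifies other Kv pores, had a mean of 1.29 FPKM. The Shaker-type genes KCNA2, KCNA3, KCNA4 and KCNA7 had 2 to 8 counts each over the 6 libraries.

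Of the calcium- and sodium-activated channels, KCNT2 led. It encodes a potassium channel opened by intracellular sodium. It had 51.1, 46.5 and 51.9 CPM in OE-circSHPRH libraries, against 54.1, 50.3 and 61.6 CPM in OE-NC libraries, and OE-NC replicate 2 lay within the OE-circSHPRH range. The log2 fold change came to -0.15 ± 0.072 (SE, edgeR adjusted p = 0.484), and to -0.067 without OE-NC replicate 3, the highest library. KCNN1, a small-conductance channel of the after-hyperpolarisation, had a mean of 1.86 FPKM and a log2 fold change of 0.23 (standard error 0.14), or 0.13 without OE-circSHPRH replicate 3. KCNMA1, the pore of the large-conductance BK channel, had 84 counts over the 6 libraries, whereas KCNMB4, its neuronal beta subunit, had 1876 counts and a mean of 3.81 FPKM.

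Inward rectifiers keep cells near the potassium equilibrium potential. KCNJ8 and KCNJ11 encode the alternative pores of ATP-sensitive potassium channels, and KCNJ8 was the far more abundant. KCNJ8 had 15.1, 15.7 and 13.5 FPKM in OE-circSHPRH libraries, against 13.2, 14.2 and 14.3 FPKM in OE-NC libraries, with overlapping groups and a log2 fold change of 0.08. KCNJ11 had 24, 21 and 30 counts in OE-circSHPRH libraries, against 39, 48 and 34 in OE-NC libraries. Its CPM did not overlap and averaged 1.52 ± 0.242 in OE-circSHPRH and 2.38 ± 0.404 in OE-NC (SD, n = 3 each), a log2 fold change of -0.64 with a 95% interval of -1.21 to -0.07 (edgeR adjusted p = 0.403). KCNJ14 and KCNJ3, a strong inward rectifier and a subunit of G-protein-gated channels, had means of 2.09 and 1.02 FPKM with overlapping groups. An opposite-strand gene shares 10.8% of the exonic bases of KCNJ8, and GRWD1, on the same strand, shares 8.1% of those of KCNJ14.

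K2P channels carry the leak that sets the resting potential. KCNK1, the most abundant, had 5.70, 5.95 and 4.50 FPKM in OE-circSHPRH libraries, against 6.08, 6.07 and 5.81 FPKM in OE-NC libraries. OE-circSHPRH replicate 3 stood below the rest, and the groups overlapped. KCNK6 had 13.3, 13.5 and 15.8 CPM in OE-circSHPRH libraries, against 11.9, 12.6 and 12.1 CPM in OE-NC libraries, without overlap and with a log2 fold change of 0.22 (standard error 0.11, edgeR adjusted p = 0.503), or 0.13 without OE-circSHPRH replicate 3.

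KCNK5, an alkali-sensitive leak channel, had the largest negative log2 fold change of the 58 tested channel genes. It had 18, 12 and 22 counts in OE-circSHPRH libraries, against 33, 30 and 30 in OE-NC libraries, without overlap. The log2 fold change was -0.79 with a 95% interval of -1.44 to -0.15 (edgeR adjusted p = 0.353). KCNK7, whose product is not known to conduct on its own, went the other way, with 19, 19 and 21 counts in OE-circSHPRH libraries, against 11, 13 and 17 in OE-NC libraries, and a standard error of 0.35. The remaining 6 K2P genes, such as KCNK3 and KCNK9, had 4 to 30 counts over the 6 libraries and were not tested. Among them KCNK12 had 1, 4 and 2 counts in OE-circSHPRH libraries, against 7, 6 and 7 in OE-NC libraries, named after its values were seen. Untested channel genes whose CPM did not overlap went both ways. CACNA1G, for example, had 3, 8 and 5 counts in OE-circSHPRH libraries, against 2, 3 and 1 in OE-NC libraries.

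Of the potassium auxiliary genes, KCNAB3 encodes a cytoplasmic beta subunit of Kv channels. It had 21.5, 19.9 and 18.1 CPM in OE-circSHPRH libraries, against 14.6, 15.7 and 17.8 CPM in OE-NC libraries, so that the groups did not overlap. The log2 fold change came to 0.31 ± 0.10 (SE, edgeR adjusted p = 0.261). KCNAB2, of the same family, averaged 7.19 ± 1.5 CPM in OE-circSHPRH and 5.32 ± 0.679 CPM in OE-NC (SD, n = 3 each). OE-circSHPRH replicate 1, at 5.47 CPM, lay below OE-NC replicate 2 at 6.10 CPM, and the log2 fold change was 0.43 (standard error 0.17, edgeR adjusted p = 0.364). KCNAB1 had a log2 fold change of -0.09 with a standard error of 0.38, too wide to place it beside the other KCNAB genes.

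KCNIP2 and KCNIP4, calcium-binding partners of A-type channels, had means of 1.65 and 1.13 FPKM, with overlapping groups and log2 fold changes of 0.33 and -0.09. That of KCNIP2 was 0.16 without OE-circSHPRH replicate 2 and 0.502 without OE-NC replicate 1. For KCNIP2, 12.2% of the exonic bases are shared with its antisense gene. The 6 KCNE genes had 2 to 9 counts each over the 6 libraries, and KCNE1 and KCNE1B have near-identical sequence, so that their reads can be shared. KCNRG shares 66.8% of its exonic bases with TRIM13 and is uncertain, as is KCNMB3, which shares 37.9% with PIK3CA on the opposite strand.

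Over the potassium class, 20 of 36 tested genes were positive, and the median log2 fold change was 0.04. At an unadjusted p under 0.05, 3 were higher and 3 lower, against 5.33% and 5.02% of all genes tested. The sign of the median was not stable: it was -0.0028 without OE-NC replicate 3, 0.015 without OE-circSHPRH replicate 3 and 0.018 without OE-NC replicate 2. Summed over all 72 genes, the level was 117.9 to 118.1 FPKM in OE-circSHPRH and 113 to 115 FPKM in OE-NC, so that the sums did not overlap. Without KCNH2 the sums were 71.0 to 74.2 FPKM in OE-circSHPRH and 70.1 to 71.3 FPKM in OE-NC and did overlap.

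The calcium class was made up almost wholly of subunits without a pore. The 6 calcium pore genes of the table had 9 to 75 counts each over the 6 libraries: CACNA1B, the N-type pore of nerve terminals, had 37, the L-type pores CACNA1C, CACNA1D and CACNA1F had 11, 75 and 9, and the T-type pores CACNA1G and CACNA1H had 22 and 12. Their summed level was 0.105 to 0.174 FPKM in OE-circSHPRH and 0.0973 to 0.142 FPKM in OE-NC. CACNA1D alone was tested, with a log2 fold change of -0.38 and a standard error of 0.395. Calcium pore genes outside these 6 were not analysed here, so the make-up of the class and its share of the summed FPKM are those of the rows taken.

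The CACNG genes CACNG4, CACNG7 and CACNG8 encode transmembrane AMPA receptor regulatory proteins, which bring glutamate receptors to the synapse and slow their closing. Together they held 27.5% of the summed FPKM of the 105 channel genes. CACNG4 had the smallest p of all channel genes. It had 130, 135 and 119 CPM in OE-circSHPRH libraries, against 113, 113 and 108 CPM in OE-NC libraries. Each OE-circSHPRH library was above each OE-NC library, with OE-circSHPRH replicate 3 nearest to them. The means were 128 ± 7.93 CPM in OE-circSHPRH and 111 ± 2.70 CPM in OE-NC (SD, n = 3 each), a log2 fold change of 0.20 with a standard error of 0.051 and a 95% interval of 0.10 to 0.31, from an unadjusted p of 0.000758 (edgeR adjusted p = 0.127).

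The authors' deposited table gives CACNG4 an adjusted p of 0.0587, also the smallest there of the 105 channel genes. Without OE-circSHPRH replicate 3 its edgeR adjusted p was 0.00435, without any filter on low counts 0.0189, and with the library class (below) as a term 0.0473. In the other fits with 1 library left out it was 0.186 to 0.486.

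CACNG7 had 103, 96.8 and 100.1 CPM in OE-circSHPRH libraries, against 90.3, 98.8 and 90.0 CPM in OE-NC libraries. OE-NC replicate 2 lay within the OE-circSHPRH range, and the log2 fold change came to 0.11 ± 0.052 (SE, edgeR adjusted p = 0.508). CACNG8 had a log2 fold change of 0.15 with a standard error of 0.11 and overlapping groups, and single libraries moved it between 0.091 (without OE-circSHPRH replicate 2) and 0.25 (without OE-circSHPRH replicate 1). CACNG4 lies on chromosome 17 (66964910 to 67033398, plus strand, GRCh38), while CACNG7 and CACNG8 lie side by side on chromosome 19 (53909335 to 53943941 and 53963040 to 53990215).

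The alpha2delta subunits sit outside the membrane and bring calcium pores to the surface, and CACNA2D1 is the target of gabapentin. CACNA2D1 averaged 18.2 ± 0.754 FPKM in OE-circSHPRH and 18.1 ± 0.642 FPKM in OE-NC (SD, n = 3 each), with a log2 fold change of 0.0084 and a 95% interval of -0.09 to 0.11. CACNA2D2 had 43.7, 45.04 and 43.3 CPM in OE-circSHPRH libraries, against 38.8, 39.5 and 40.3 CPM in OE-NC libraries. Its groups did not overlap and each was tight, and the log2 fold change came to 0.15 ± 0.061 (SE, edgeR adjusted p = 0.364). CYB561D2, on the opposite strand, shares 9.6% of its exonic bases.

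The beta subunits bind the cytoplasmic side of the calcium pore. CACNB3 had 56.2, 58.2 and 61.1 CPM in OE-circSHPRH libraries, against 55.7, 52.2 and 51.0 CPM in OE-NC libraries. The groups did not overlap, with OE-circSHPRH replicate 1 and OE-NC replicate 1 close together, and the log2 fold change came to 0.14 ± 0.060 (SE, edgeR adjusted p = 0.396). CACNB1, CACNB2 and CACNB4 had log2 fold changes of -0.05, -0.03 and -0.11, each with overlapping groups. In CACNB2, OE-circSHPRH replicate 1 stood apart at 16.4 CPM, against 11.2 and 11.5 CPM in the other OE-circSHPRH libraries and 13.02 to 13.79 CPM in OE-NC.

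Over the calcium class, 6 of 11 tested genes were positive, and the median log2 fold change was 0.0084. CACNG4, CACNA2D2 and CACNB3 were the 3 with an unadjusted p under 0.05, all higher in OE-circSHPRH. Of all genes tested, 5.33% were higher and 5.02% lower at that threshold. The median had no stable sign either, at -0.0041 without OE-NC replicate 1, -0.0038 without OE-circSHPRH replicate 1 and -0.023 with a term for library class, but 0.037 to 0.13 with any other library left out, the highest without OE-NC replicate 2, and 0.104 over genes with a mean CPM of at least 1. The summed level was 110 to 115 FPKM in OE-circSHPRH and 102 to 106 FPKM in OE-NC, without overlap. Without CACNG4, CACNG7 and CACNG8 the sums were 37.4 to 38.4 FPKM in OE-circSHPRH and 36.3 to 37.2 FPKM in OE-NC, still without overlap.

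The HCN channels open on hyperpolarisation and carry the pacemaker current. HCN3 had 5.22, 5.64 and 5.86 FPKM in OE-circSHPRH libraries, against 5.69, 6.58 and 5.65 FPKM in OE-NC libraries, and HCN2 averaged 3.18 ± 0.167 FPKM in OE-circSHPRH and 3.11 ± 0.138 FPKM in OE-NC (SD, n = 3 each). Both pairs of groups overlapped, and the log2 fold changes were -0.10 for HCN3 and 0.03 for HCN2, with standard errors of 0.086 and 0.11. Without OE-NC replicate 2 the value of HCN3 was -0.025. PKLR, on the opposite strand, shares 13.5% of the exonic bases of HCN3. HCN4, of the sinus node, had 24 counts over the 6 libraries.

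**Figure D4:**
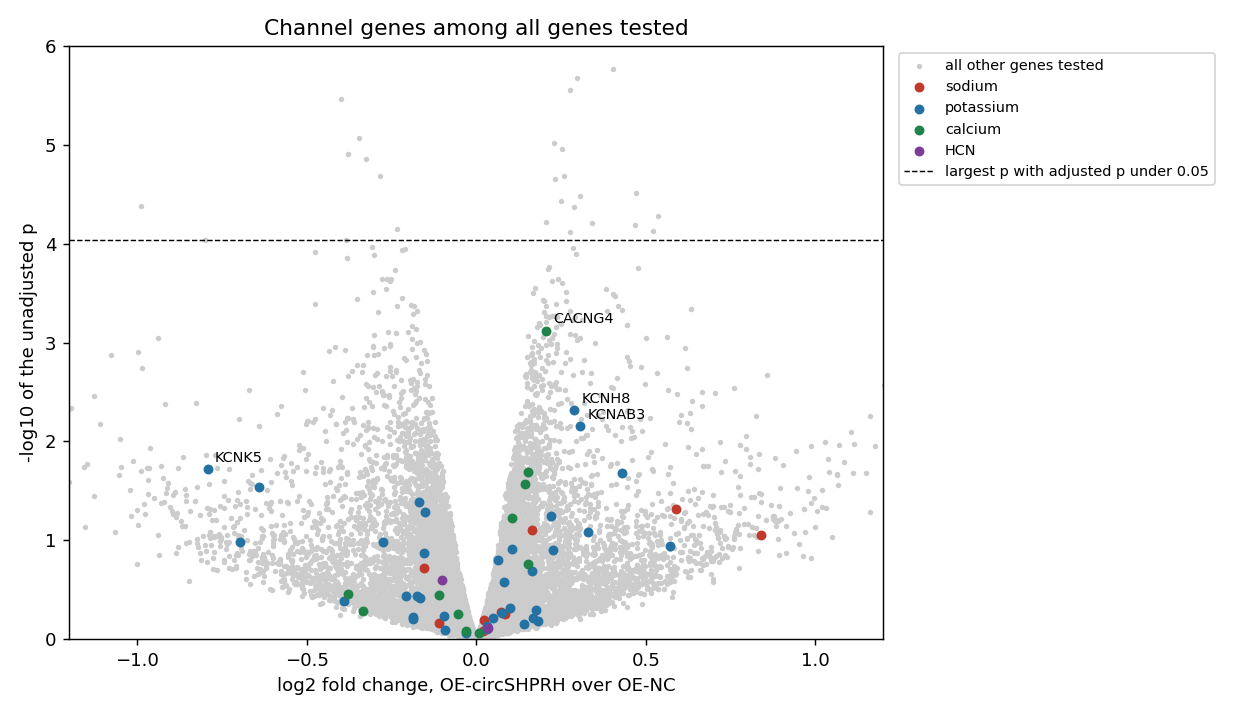
-log10 of the unadjusted edgeR p (vertical axis) against the log2 fold change, OE-circSHPRH over OE-NC (horizontal axis), with the 58 channel genes in colour by class over the other genes tested in grey, the dashed line marks the largest p with an adjusted p under 0.05, and 37 genes lie outside the axes. All channel genes lie under the line, CACNG4 nearest to it.

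The share of counts from mitochondrially encoded genes splits the libraries into a low class (OE-circSHPRH replicate 3, OE-NC replicates 1 and 2) and a high class (OE-circSHPRH replicates 1 and 2, OE-NC replicate 3), at 10.2% to 10.3% and 11.4% to 12.1%. For CACNG4 the difference of mean log2(CPM + 0.5) was 0.08 in the low class and 0.29 in the high class. It was 0.25 and 0.21 for KCNAB3, 0.14 and 0.14 for CACNA2D2, 0.18 and 0.16 for CACNB3, and 0.26 and 0.17 for KCNH8, low class before high class. For KCNK6 it was 0.36 and 0.14, for KCNK7 0.53 and 0.18, for KCNH3 -0.44 and -0.27, for KCNJ11 -0.43 and -0.38 and for KCNK5 -0.39 and -0.65. In each class 1 of the groups has a single library, and for genes whose groups do not overlap the sign is fixed. With the library class as a term, CACNG4 was the only channel gene to pass.

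Genes that work with these channels, in lists drawn up with earlier results of these data known, were read from the same fit. Of 21 tested scaffold and auxiliary genes outside the name rule, 0 passed, 4 were higher and 1 lower at an unadjusted p under 0.05 (5.33% and 5.02% of all genes tested), 12 were positive and the median log2 fold change was 0.05. The smallest p belonged to NRCAM, an adhesion protein of nodes and initial segments where sodium channels cluster, and CNTNAP2, which clusters Kv channels beside nodes. NRCAM averaged 30.6 ± 2.43 FPKM in OE-circSHPRH and 26.4 ± 1.03 FPKM in OE-NC (SD, n = 3 each), with a log2 fold change of 0.21 (edgeR adjusted p = 0.107), and CNTNAP2 had 0.46 (edgeR adjusted p = 0.266).

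Of 13 tested calcium sensors, 0 passed and 2 were higher at an unadjusted p under 0.05, against 5.33% of all genes tested. Of the 13, 7 were positive, against 50.8% of all genes tested, and the median was 0.02. CALM2 encodes calmodulin, which is built into KCNQ, SK and sodium channels. CALM2 averaged 221 ± 6.49 FPKM in OE-circSHPRH and 199 ± 3.65 FPKM in OE-NC (SD, n = 3 each), with a log2 fold change of 0.15 (edgeR adjusted p = 0.131). The call of CALM2 and of NRCAM depended on the tool, with adjusted p of 0.00346 and 0.0221 by DESeq2 and of 0.0427 for CALM2 by limma-voom. Over all alternatives the adjusted p ran from 0.00346 to 0.476 for CALM2 and from 0.00137 to 0.43 for NRCAM.

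None of 17 tested ion pumps and exchangers passed, with 10 positive and a median of 0.01, and ATP2A3, a calcium pump of the endoplasmic reticulum, had the smallest p (log2 fold change 0.21, edgeR adjusted p = 0.478), followed by ATP2B4 of the plasma membrane (0.16, edgeR adjusted p = 0.499). None of 17 tested leak, release and entry channels passed, with 12 positive and a median of 0.02. The release channel RYR3 had a log2 fold change of -0.21 (edgeR adjusted p = 0.510) and the mechanosensitive channel PIEZO1 of 0.11 (edgeR adjusted p = 0.561). None of 7 tested transcription regulators passed, with 4 positive and a median of 0.0015. MEF2C and MEF2D had log2 fold changes of 0.12 and -0.05, and REST, the repressor that silences neuronal channel genes outside neurons, had 0.07 (standard error 0.070), named after its value was seen.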

How the data were processed

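Per the labels, total RNA of SH-SY5Y cells was sequenced in 3 libraries per group. The table holds raw read counts per gene, deposited by the authors. The authors' deposited FPKM and normalized count signal are proportional, within a library, to count over gene length and to the count. It also carries the authors' deposited log2 fold changes and p-values. The submitters' processing notes name GRCh37, but the deposited start and end equal those of GENCODE 29 on GRCh38 for 28746 of 28752 genes, and for all 105 channel genes. For the aligner, the counter and the use of strand: not given in the sources used here.

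From the counts, filterByExpr of edgeR 4.0.16 (minimum count 10, minimum total 15) kept 16458 genes with 99.8% of the counts. Libraries were TMM-scaled and tested with glmQLFTest, two-sided, group as the only term, Benjamini-Hochberg adjustment at 0.05. A standard error is the log2 fold change over the square root of F. Intervals use its degrees of freedom. DESeq2 1.42.0 and limma 3.58.1 were alternatives. The code was checked on simulated counts. Depth ranged from 15645261 to 17591718 counts, so 1 count equals 0.0568 to 0.0639 CPM before TMM scaling.

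Members and partner lists were chosen with earlier results of these data known. Named are channel genes whose groups do not overlap, up to 4 per subclass with the highest mean FPKM (at least 0.5), up to 2 per class and direction with the smallest p, and per partner list any gene passing and the 2 smallest p. Other channel genes were named after their values were seen, to account for each subclass. Some genes that meet this rule are not reported here, and are left out of the plots that name genes.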

Additional observations from a re-analysis of the deposited data

How the results depend on the processing

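The count of channel genes passing was 0 in the reported fit, with DESeq2, limma-voom, DESeq2-type size factors, a mean CPM of at least 1, the replicate block and both FPKM fits. It was 1 without a filter on low counts and 1 with a term for library class (CACNG4 in both), and 0 to 2 with 1 library left out, the 2 being CACNG4 and KCNH8 without OE-circSHPRH replicate 3. Over all genes 31 of 16458 passed, against 77 of the 6455 to which DESeq2 gave an adjusted p. The count was 194 of 28752 without a filter and 171 with the library class. It was 4 with limma on log2(FPKM + 0.1), 4 on log2(FPKM + 1), and 5 to 311 with 1 library left out. It was 5 without OE-circSHPRH replicate 2, 311 without OE-circSHPRH replicate 3, 6 without OE-NC replicate 1, 11 without OE-NC replicate 2 and 19 without OE-NC replicate 3. The cause was not tested. With the replicate block 6 genes and 0 channel genes passed, but replicates with the same number did not deviate together (correlations of -0.04, -0.03 and -0.11), so the samples share only a number.

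Opposite in sign to the reported 0.0084 and 0.02, the log2 fold changes with a term for library class were -0.023 for CACNA2D1 and -0.012 for SCN9A. With 1 library left out, the log2 fold change crossed 0 for CACNA2D1 (-0.014 to 0.042), CACNB2 (-0.23 to 0.065), HCN2 (-0.0027 to 0.075), KCNJ3 (-0.14 to 0.032), KCND1 (-0.024 to 0.083), KCNMB4 (-0.0093 to 0.12), SCN2A (-0.037 to 0.095), SCN3A (-0.025 to 0.23), SCN7A (-0.23 to 0.017) and SCN9A (-0.014 to 0.064). That list covers the channel genes named by the rule. KCNAB1, named after its values were seen, kept its sign in 12 of 15 alternatives and ran from -0.38 to 0.27. Genes with few counts have wide intervals, and a lack of a call there says little at this depth.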
